A study of Mus musculus with 6 samples.

Results

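Msx1, Msx2, the ligands Tgfb1, Tgfb2 and Tgfb3 and the receptors Tgfbr1, Tgfbr2 and Tgfbr3 are described here in adult mouse thyroid after deletion of the forkhead factor gene Foxe1. These 8 genes were listed by name, because Msx1 and Tgfb3 are targets of Foxe1 known from the embryonic palate and the other 6 are their relatives and receptors. All 8 were measured, each by 1 probe set, among 19505 named genes on 22206 probe sets of a whole-transcript array. None of the 8 differed between the groups past the threshold. The Msx genes read at the bottom of the scale in every lobe, the TGF-beta genes were well above it, and Tgfb3 had the largest difference, -0.74 on the log2 scale.

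The 3 knockout mice were Foxe1flox/flox/Cre, with both Foxe1 copies flanked by loxP sites and a tamoxifen-inducible Cre recombinase. The 3 control mice carried Cre without the floxed gene. All 6 were on a C57BL/6J background and received tamoxifen at 0.05 g/kg intraperitoneally on each of 5 days at 6 to 8 weeks of age, and a thyroid lobe was taken 2 weeks later, with 1 array per animal. The promoter that drives Cre, the cells in which it acts and the animals' sex are not stated in the labels used here.

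Transforming growth factor beta ligands are secreted in latent complexes, and once released they bring together the type II receptor, Tgfbr2, and the type I receptor kinase, Tgfbr1, which phosphorylates Smad proteins that enter the nucleus. Tgfbr3, betaglycan, is a co-receptor that presents ligand and is needed most for Tgfb2. In thyroid follicular cells TGF-beta is known as an inhibitor of growth and of thyroid-specific genes. Msx1 and Msx2 are homeobox repressors of the embryonic head and limb that act downstream of bone morphogenetic proteins (BMP), and loss of Msx1 or Tgfb3 in mice gives cleft palate, as does loss of Foxe1.

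Since Foxe1 binds DNA through a forkhead domain, the 250 bases before the start site were searched for the forkhead core TGTTT and the longer site TGTTTAC on both strands. The longer site contains the core. RefSeq promoters of GRCm38.p6 were found for 6 of the 8 genes, with 7 start sites in all, but not for Tgfb3 and Tgfbr3. The core was matched once before the start of Tgfb2, with its first base at -54, and once before that of Tgfbr2, at -209, and it was not matched before Msx1, Msx2, Tgfb1 or either start of Tgfbr1. The longer site was matched in none of the 7. Over all 32851 RefSeq promoters of this length, 46.4% hold the core and 3.17% the longer site. A match in these letters is not a binding site, and its absence concerns this window alone. The sequences of Msx1, the gene known as a target, and of the 2 genes with a match are shown 5′ to 3′ with the core in capitals (AAACA is the core on the other strand).
Msx1, chr5:37824586-37824835, minus strand: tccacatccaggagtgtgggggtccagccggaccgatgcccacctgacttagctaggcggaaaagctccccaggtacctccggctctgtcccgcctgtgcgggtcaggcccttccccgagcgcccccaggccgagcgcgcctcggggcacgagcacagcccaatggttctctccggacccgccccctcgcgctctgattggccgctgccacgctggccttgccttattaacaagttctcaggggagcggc
Tgfb2, chr1:186705990-186706239, minus strand: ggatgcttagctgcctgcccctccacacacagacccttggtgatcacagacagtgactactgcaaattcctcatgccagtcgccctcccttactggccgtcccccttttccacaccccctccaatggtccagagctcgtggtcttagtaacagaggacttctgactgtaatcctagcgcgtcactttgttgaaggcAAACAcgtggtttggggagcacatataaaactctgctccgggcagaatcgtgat
Tgfbr2, chr9:116175364-116175613, minus strand: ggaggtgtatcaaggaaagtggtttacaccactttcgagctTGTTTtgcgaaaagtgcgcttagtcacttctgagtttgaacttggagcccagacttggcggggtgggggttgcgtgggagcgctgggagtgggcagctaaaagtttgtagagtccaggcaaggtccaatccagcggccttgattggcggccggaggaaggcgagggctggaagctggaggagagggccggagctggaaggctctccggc

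Values are log2 signals made with RMA, which removes background and equalises the arrays, so a step of 1 is a doubling. Array medians lay between 5.62 and 5.69 and lower quartiles between 3.49 and 3.60, and no detection calls were used, so a value below the lower quartile cannot be told from background. Differences are knockout minus control, tested with limma over all 22206 probe sets at an adjusted p of 0.05. Foxe1, the targeted gene, had control values of 7.60, 7.19 and 7.04 and knockout values of 3.33, 2.88 and 3.04, and it fell (adjusted p = 0.000442). All 3 knockout values lie below the lower quartiles of their arrays, so the fitted difference of -4.19 is no exact size; set against those quartiles, the fall was at least 3.75 on the log2 scale. Of 10 measured markers of thyroid follicular cells all had positive differences (median 1.32), and 1, the homeobox gene Hhex, rose (2.46, adjusted p = 0.0273). Without control 3, and also without knockout 1, 9 of the 10 were positive. The marker with the lowest values, 2.37 to 3.12, read below the lower quartile of every array, where a sign cannot be told from background. Slc5a5 did not pass (4.83, adjusted p = 0.14); it read 8.0, 8.0 and 2.97 in the controls, the last below the lower quartile of its array, and without control 3 its difference was 3.15. Iyd did not pass either (2.10, adjusted p = 0.136). The mean level of the 10 follicular markers was 9.005, 8.92 and 7.55 in controls 1, 2 and 3 and between 9.86 and 10.20 in the knockouts. Lobes of both groups also held muscle, airway, squamous and stromal transcripts. The median difference was -0.61 for 13 skeletal muscle genes, -1.0 for 9 airway genes, -0.72 for 12 fibroblast and matrix genes, -0.45 for 7 adipocyte genes, -0.42 for 10 macrophage genes, -0.22 for 7 lymphocyte genes, 0.16 for 11 squamous genes, 0.07 for 9 endothelial genes and -0.05 for 9 cartilage genes. For 3 parathyroid genes it was -6.19 and for 4 C-cell genes -0.67, and both lists hold Chga. The mean level of the parathyroid genes was between 13.24 and 16.93 in the controls. In knockouts 1, 2 and 3 it was 5.95, 14.77 and 8.69, so knockout 2 lay inside the control range. None of the parathyroid genes had groups apart, and their median difference was -9.11 without knockout 2. Of the medians of the marker lists, all but the follicular and airway medians moved by over 1.5 times or turned when 1 array was left out. Without knockout 3 that of muscle was -0.29, of fibroblast and matrix -0.14, of macrophages -0.28, of squamous genes 0.03 and of endothelium 0.52, and without knockout 1 that of parathyroid was -3.98, of macrophages -0.62, of lymphocytes -0.04 and of endothelium 0.01. Without control 3 it was -0.44 for fibroblast and matrix, -0.21 for macrophages and 0.18 for endothelium, and without control 1 -0.35 for C cells, -0.17 for adipocytes, 0.24 for squamous genes, 0.13 for endothelium and -0.12 for cartilage. Without control 2 it was -0.70 for adipocytes and 0.11 for endothelium, and without knockout 2 it was 0.37 for squamous genes. Cartilage turned to 0.32 without control 3, to 0.27 without knockout 3 and to 0.01 without knockout 1. The mean level of the lymphocyte list was between 3.62 and 4.0 on the arrays, near the lower quartiles. Its median therefore rests partly on values that cannot be told from background. Hhex was the single gene of these 12 marker lists past the threshold. Whether tissue taken with the lobe plays a part in the results below was not tested.

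Both Msx genes read below the lower quartile of every array in both groups, where signal cannot be told from background. In the controls Msx1 read 2.98, 3.14 and 3.23, against 2.97, 2.73 and 3.21 in the knockouts. These values lie between the 5.78th and the 17.1th percentile of their own arrays, and the groups overlap. The difference was -0.15 (SE 0.20, limma 95% interval -0.59 to 0.30, adjusted p = 0.82). Msx2 read 2.80, 3.12 and 2.94 in the controls against 2.97, 2.79 and 2.93 in the knockouts, between the 6.52th and the 15.4th percentile. Its difference was -0.06 (SE 0.18, interval -0.47 to 0.35, adjusted p = 0.936), and it turned to 0.03 without control 2. A fold change cannot be read from such values, and a decrease from this level could not be seen.

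The genes whose values over the 6 arrays were most like those of Msx1, among 2790 named genes with an SD of at least 0.5, were Zbtb42 (Pearson r = 0.95), Paqr8 (0.94), the vomeronasal receptor gene Vmn2r69 (0.93), the olfactory receptor gene Olfr596 (0.902) and Gtf2ird2 (0.895). Only 4 genes reached an r of 0.9. These correlations describe 6 arrays, on values of Msx1 between 2.73 and 3.23, with all arrays sharing 1 normalization. Zbtb42, Vmn2r69 and Olfr596 themselves stayed below the array medians, with 4.83, 4.82 and 4.73 as their highest values.

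**Figure D1:**
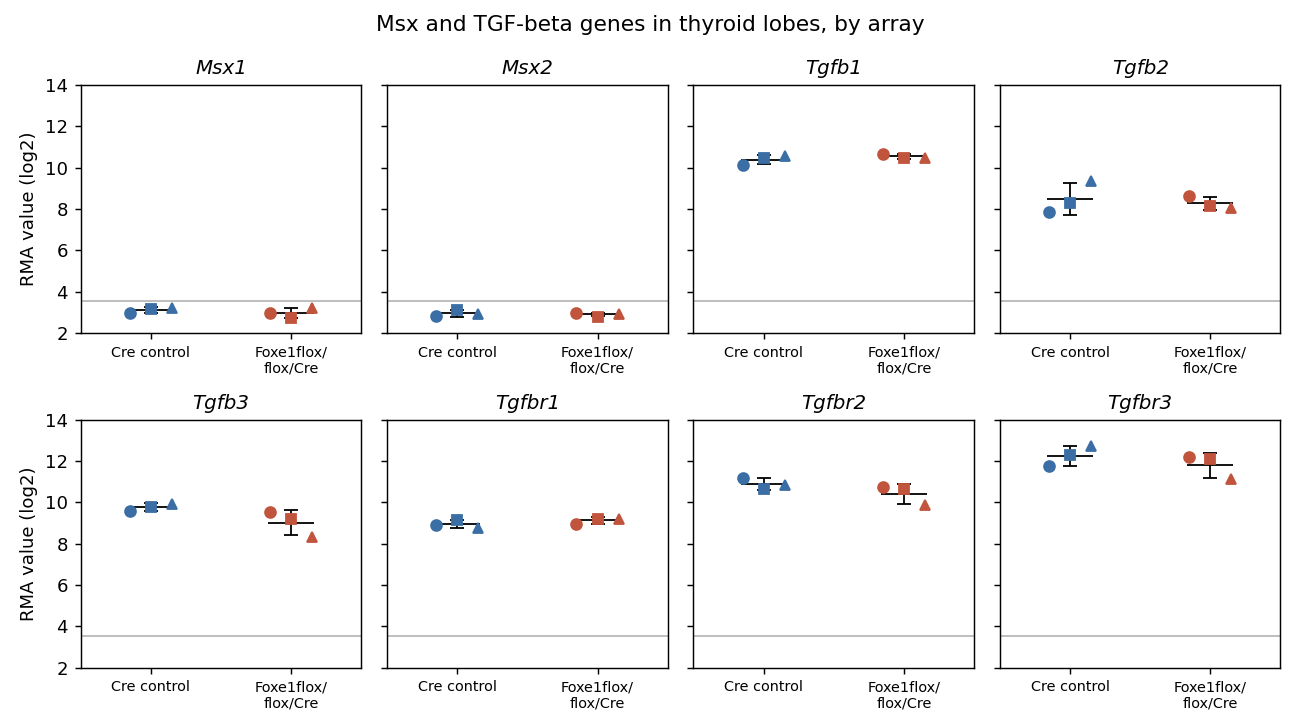
RMA value on the log2 scale (y axis) of the 8 genes in Cre controls (blue) and Foxe1flox/flox/Cre mice (red), with circle, square and triangle for replicates 1, 2 and 3 (numbers not treated as pairs), horizontal line and bars for mean and SD (n = 3) and a thin grey band for the lower quartiles of the arrays, 3.49 to 3.60. Msx1 and Msx2 lie under the band on every array, the other 6 genes far above it, and knockout 3 is the lowest array for Tgfb3, Tgfbr2 and Tgfbr3.

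Of the ligands, Tgfb1, the form made by most cell types and best known for effects on immune and matrix cells, was clearly expressed and hardly differed. In the controls it read 10.14, 10.47 and 10.57, against 10.67, 10.49 and 10.47 in the knockouts. Control 1 was lowest, and the other 5 arrays lay close together, so the groups overlap. The difference was 0.15 (SE 0.19, interval -0.29 to 0.59, adjusted p = 0.809), so the interval holds neither a doubling nor a halving.

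Tgfb2, the ligand that depends most on betaglycan, spread widest among the controls. In the controls it read 7.85, 8.29 and 9.33, against 8.65, 8.14 and 8.05 in the knockouts, with control 3 the highest and control 1 the lowest of all arrays. The means were 8.49 ± 0.76 and 8.28 ± 0.32 (SD, n = 3 each), and the difference was -0.21 (SE 0.36, interval -1.03 to 0.61, adjusted p = 0.867). Without control 3 it was 0.21, and without control 1 it was -0.53, so its direction was set by 1 array.

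Tgfb3, the ligand of the fusing palate, was lower in all 3 knockouts than in any control. In the controls it read 9.57, 9.79 and 9.94, against 9.52, 9.22 and 8.34 in the knockouts. The means were 9.77 ± 0.19 and 9.03 ± 0.61 (SD, n = 3 each). Knockout 1 was just below control 1, while knockout 3 was 1.43 below the control mean. The difference was -0.74, a 1.67-fold lower level (SE 0.30, interval -1.42 to -0.06), with an unadjusted p of 0.0366 and an adjusted p of 0.348 from limma, which does not pass. Without knockout 3 it was -0.40 (adjusted p = 0.604). Of all probe sets, 3.67% had a difference this low or lower.

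Tgfb3 was the only 1 of the 8 genes with an unadjusted p under 0.05 or with groups that did not overlap. Over all probe sets 12.7% had such a p, 18.1% had groups that did not overlap (9.28% upward and 8.78% downward), and 0.338% (75 of 22206, 0.252% upward and 0.0856% downward) passed the adjusted threshold, so 1 of 8 and 0 of 8 are near the background. Of the 8 differences 6 were negative, with a median of -0.18 against -0.02 over all probe sets, of which 52.9% were negative. Leaving out each array in turn gave medians of the 8 between -0.28 (without control 1) and -0.08 (without control 3 or knockout 2), with -0.27 without knockout 1 and -0.10 without knockout 3.

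The 3 ligands can be set side by side on each array. Relative to the control mean of each gene, knockouts 1, 2 and 3 stood at 0.28, 0.10 and 0.08 for Tgfb1, at 0.16, -0.35 and -0.44 for Tgfb2 and at -0.25, -0.55 and -1.43 for Tgfb3. Whether the ligands differ from each other in response was not tested.

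Among the receptors, Tgfbr1, the type I kinase, read 8.90, 9.16 and 8.78 in the controls, against 8.95, 9.22 and 9.22 in the knockouts. The groups overlap, with control 3 lowest. The difference was 0.18 (SE 0.19, interval -0.25 to 0.62, adjusted p = 0.757), again without room for a doubling or a halving. Tgfbr1 lies on chromosome 4 near Foxe1 itself, with 25 annotated genes between them, of which 11 are protein-coding.

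Tgfbr2, the type II kinase that binds ligand first, read 11.18, 10.65 and 10.83 in the controls, against 10.72, 10.63 and 9.85 in the knockouts. Knockouts 1 and 2 lay at the level of control 2, and knockout 3 stood 1.04 below the control mean. The difference was -0.49 (SE 0.27, interval -1.10 to 0.13, adjusted p = 0.504), and -0.21 without knockout 3.

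Tgfbr3 read 11.74, 12.28 and 12.71 in the controls, against 12.18, 12.08 and 11.11 in the knockouts. Knockouts 1 and 2 lay inside the range of the controls. As for Tgfbr2, knockout 3 was the lowest array, here 1.13 below the control mean. The difference was -0.45 (SE 0.34, interval -1.23 to 0.32, adjusted p = 0.647). It was -0.11 without knockout 3, -0.22 without control 3 and -0.70 without control 1.

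**Figure D2:**
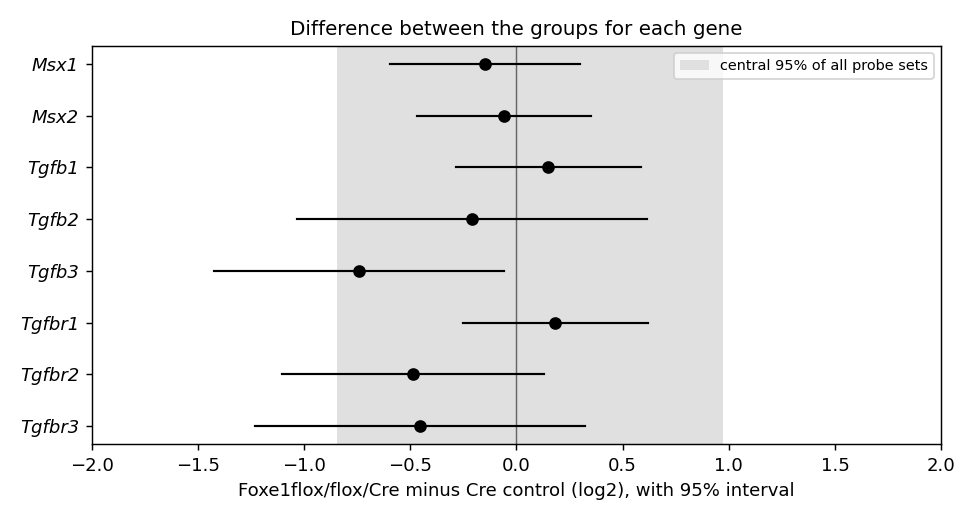
Difference between Foxe1flox/flox/Cre and Cre control means on the log2 scale (x axis) for each gene, with limma's 95% interval as a line and the central 95% of all 22206 probe sets, -0.85 to 0.97, as a grey band. All 8 points lie inside the band, and the interval of Tgfb3 alone, at -1.42 to -0.06, leaves out 0.

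Tgfb3, Tgfbr2 and Tgfbr3 were all lowest in knockout 3, and so were 7 of the 12 marker lists by their mean level, those of muscle, fibroblast and matrix, endothelium, macrophages, airway, adipocytes and C cells. Some of these were close to another knockout. Knockouts 3 and 2 had means of 11.13 and 11.14 for adipocytes, 12.51 and 12.54 for airway and 7.89 and 8.04 for macrophages. For C cells knockouts 3 and 1 had 6.995 and 7.135. Chga, which the C-cell list shares with the parathyroid list, was itself lowest in knockout 1. It read 5.85, 15.16 and 6.95 in knockouts 1, 2 and 3. The mean log2 level of the 13 skeletal muscle genes was between 16.47 and 16.65 in the controls and was 16.13, 16.22 and 15.27 in knockouts 1, 2 and 3, with all 13 differences negative, and 12 of 13 without knockout 3. That of the 12 fibroblast and matrix genes was between 11.23 and 12.24 in the controls and was 11.77, 11.25 and 10.28 in the knockouts, with all 12 negative, and 10 of 12 without knockout 3. The endothelial mean was between 9.03 and 9.13 in the controls and was 9.86, 9.56 and 8.38 in the knockouts. No gene of either list was near background: the lowest value of any array was 5.91 in stroma and higher in muscle. None of these 25 genes passed the threshold; the smallest adjusted p were those of Ryr1 (-1.31, 0.1), Pvalb (-1.42, 0.163) and Myoz1 (-1.02, 0.163) in muscle and of Sparc (-0.98, 0.278), Pi16 (-0.93, 0.358) and Fbln1 (-1.0, 0.406) in stroma. In whole lobes fewer cells of a type and less RNA per cell cannot be told apart, and the part of these tissues in the differences of Tgfb3, Tgfbr2 and Tgfbr3 was not tested.

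Muscle genes were also among those with the closest pattern over the 6 arrays. For Tgfb3 they were Rcan2, an inhibitor of calcineurin (Pearson r = 0.998), the cytokine gene Il7 (0.99), Pros1, which encodes the anticoagulant protein S (0.99), the mitochondrial creatine kinase of striated muscle Ckmt2 (0.99) and Rcn3 (0.99). For Tgfbr2 they were Prkab2 (0.99), a subunit of AMP-activated kinase, Neb, the giant thin-filament protein of skeletal muscle (0.98), the muscle dehydratase Hacd1 (0.98), Pcca (0.98) and Ndufa3 (0.97). An r of 0.9 was reached by 184 of 2789 genes for Tgfb3 and by 86 of 2790 for Tgfbr2. These r describe 6 arrays that share 1 normalization, with knockout 3 the lowest array for each of the 10 genes.

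**Figure D3:**
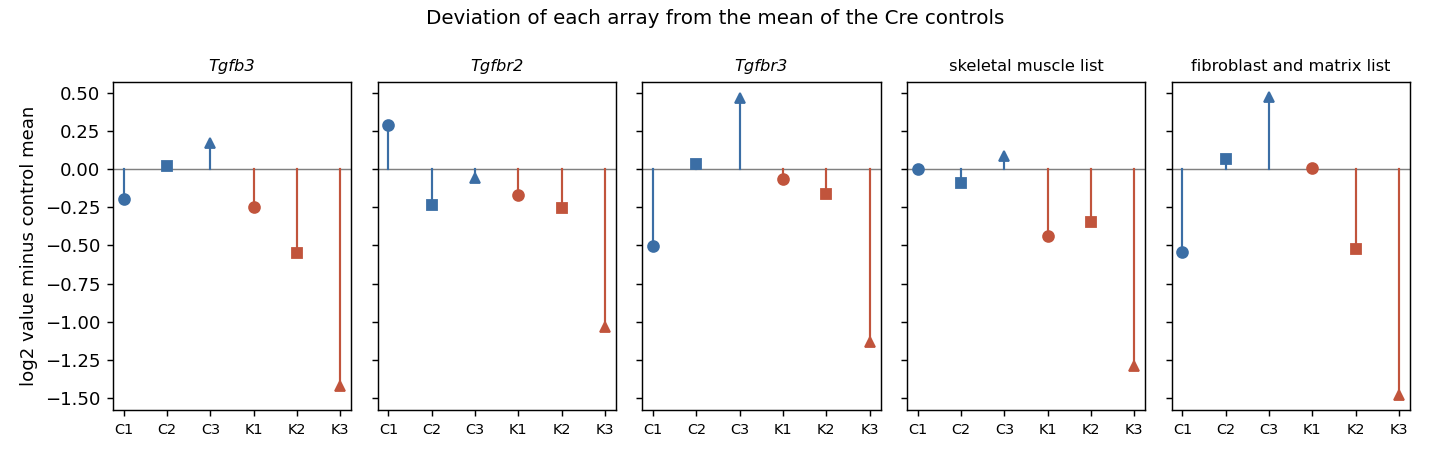
Log2 value of each array minus the mean of the 3 Cre controls (y axis) for Tgfb3, Tgfbr2, Tgfbr3 and the mean of the skeletal muscle and the fibroblast and matrix lists, with controls C1 to C3 in blue and knockouts K1 to K3 in red. K3 is the lowest array in all 5 panels, at -1.43 for Tgfb3, while K1 and K2 lie closer to the controls.

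The genes around the members were described through 7 lists of the pathway, with counts and medians beside those of all probe sets, of which 46.7% were positive with a median of -0.02. None of their genes passed the adjusted threshold, which 0.338% of all probe sets passed. At an unadjusted p under 0.05 the background is 6.61% of probe sets higher and 6.13% lower in the knockout. With each array left out in turn, list medians ran from -0.31 to -0.16 for latency and activation and from 0.12 to 0.19 for Smads and regulators. These medians ran from -0.31 to -0.03 for response genes, from 0.03 to 0.21 for BMP signalling and from -0.12 to -0.002 for palate development. The median of the other receptors and ligands turned to 0.09 without knockout 3, and that of the homeobox relatives turned to 0.11 without knockout 1.

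Genes of the latent complex and its activation had their largest differences downward. Of 13 measured, 8 were negative (median -0.19), with 3 lower and 1 higher at an unadjusted p under 0.05. The gene at the median read below the lower quartile of every array, where signal cannot be told from background. Among probe sets above the median level alone the median was -0.48. Ltbp1, a latent TGF-beta binding protein that stores the ligand in the matrix, read 8.13, 8.13 and 8.17 in the controls, against 7.62, 6.53 and 6.44 in the knockouts. The groups are apart and the controls lie close together (SD 0.02; difference -1.28, SE 0.30, adjusted p = 0.136). Thbs1, thrombospondin 1, an activator of the latent form, read 9.25, 10.06 and 10.46 against 8.31, 8.99 and 7.64 (-1.61, SE 0.39, adjusted p = 0.14). Ltbp4, the binding protein of elastic fibres, read 12.05, 12.21 and 12.24 against 11.81, 11.30 and 11.03 (-0.79, SE 0.23, adjusted p = 0.193). For all 3, picked by their p, every knockout lay below every control, and none passed limma's threshold. In the whole list groups were apart for 2 genes upward and 4 downward, against 9.28% and 8.78% of all probe sets. Ltbp1, Thbs1 and Ltbp4 were all lowest in knockout 3, as were the muscle and the fibroblast and matrix lists. Without knockout 3 the differences were -1.07 for Ltbp1, -1.27 for Thbs1 and -0.61 for Ltbp4.

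The Smads and the regulators of their signal had mostly positive differences. Of 18 measured, 13 were positive (median 0.15), with 3 higher and 0 lower at an unadjusted p under 0.05. Cd109, a surface co-receptor that restrains TGF-beta, had means of 8.30 ± 0.28 and 9.06 ± 0.16 in controls and knockouts (0.76, adjusted p = 0.172), and Skil, which encodes the Smad repressor SnoN, of 9.94 ± 0.25 and 10.61 ± 0.02 (0.67, adjusted p = 0.183; SD, n = 3 each). Tgif2, a homeobox co-repressor of Smads, differed by 0.64 (adjusted p = 0.191). The groups did not overlap for these 3, which were picked by their p. In the whole list groups were apart for 4 genes upward and 0 downward, against 9.28% and 8.78% of all probe sets.

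Genes known to respond to TGF-beta were split in direction. Of 18 measured, 7 were positive and 11 negative (median -0.18), with 4 higher and 1 lower at an unadjusted p under 0.05. Ccn2, connective tissue growth factor, read 9.82, 11.58 and 10.98 in the controls, against 13.48, 12.43 and 12.49 in the knockouts (2.01, SE 0.45, adjusted p = 0.115). Tgfbi, a secreted matrix protein named for its induction by TGF-beta, read 11.51, 12.08 and 12.30 against 13.37, 12.51 and 12.88 (0.96, adjusted p = 0.201). Tnc, the matrix glycoprotein tenascin C, had the opposite sign, at 9.74 ± 0.31 in controls against 8.35 ± 0.27 (SD, n = 3 each, difference -1.39, SE 0.23, adjusted p = 0.0545), the smallest adjusted p of the 7 lists. In the whole list groups were apart for 5 genes upward and 1 downward, against 9.28% and 8.78% of all probe sets. The list holds 3 collagen genes that are also among the fibroblast markers, and all 3 were negative and lowest in knockout 3.

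Among other receptors and ligands of the superfamily, 9 of 18 measured genes were negative and 8 positive, with equal group means for Acvr2b (median -0.04), with 1 higher and 1 lower at an unadjusted p under 0.05. Mstn, the muscle growth inhibitor myostatin, differed by -1.07 (adjusted p = 0.197) and was lowest in knockout 3, at 11.28, as was the mean of the muscle list. The activin-binding protein gene Fstl3 differed by 0.67 (adjusted p = 0.299) and the inhibin subunit gene Inha by -0.50 (adjusted p = 0.414).

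In the BMP pathway, which induces Msx genes in the embryo, 13 of 21 measured genes were positive (median 0.14), with 1 higher and 1 lower at an unadjusted p under 0.05. Bmp6 read 7.49, 7.97 and 7.56 in the controls, against 6.66, 6.22 and 6.37 in the knockouts (-1.26, SE 0.21, adjusted p = 0.0589). Bmp3, which opposes other BMPs, read 7.00, 6.82 and 6.40 against 7.51, 8.14 and 8.91 (1.45, SE 0.34, adjusted p = 0.13). Bmp2 differed by 0.65 (adjusted p = 0.436). For Bmp6 and Bmp3 the groups were apart, in opposite directions, and for no other gene of the list. Over all probe sets they were apart upward in 9.28% and downward in 8.78%.

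Of 11 measured homeobox relatives of the Msx genes, 5 were positive (median -0.06), with 2 higher and 0 lower at an unadjusted p under 0.05. The gene at the median read below the lower quartile of every array, as did other genes of the list. The median and the count of positive genes therefore rest partly on values that cannot be told from background. Barx2 read 9.92, 9.91 and 9.80 in the controls, against 10.92, 10.96 and 11.88 in the knockouts (1.38, SE 0.27, adjusted p = 0.0815). Dlx3, a factor of squamous differentiation, read 6.51, 8.20 and 7.56 against 8.57, 9.16 and 9.57 (1.68, SE 0.42, adjusted p = 0.148). Dlx5 differed by 0.48 (adjusted p = 0.4). The mean level of the 11 squamous markers was between 13.28 and 13.69 in the controls and between 13.70 and 14.36 in the knockouts, highest in knockout 3 as Barx2 and Dlx3 were, and its part in these differences was not tested.

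Of 18 measured genes of palate development, 11 were negative (median -0.07), with 3 higher and 3 lower at an unadjusted p under 0.05. Fgfr2, a receptor of fibroblast growth factors, differed by 0.54 (adjusted p = 0.249), the transcription factor gene Tfap2a by 1.06 (adjusted p = 0.246) and the zinc finger gene Osr2 by -0.55 (adjusted p = 0.251). Groups did not overlap for these 3 genes, which were picked by their p. In the whole list groups were apart for 3 genes upward and 3 downward, against 9.28% and 8.78% of all probe sets. Tfap2a was highest in knockout 3, at 12.05, as was the mean of the squamous markers, a list that shares a gene with this one. The part of squamous tissue in these differences was not tested.

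**Figure D4:**
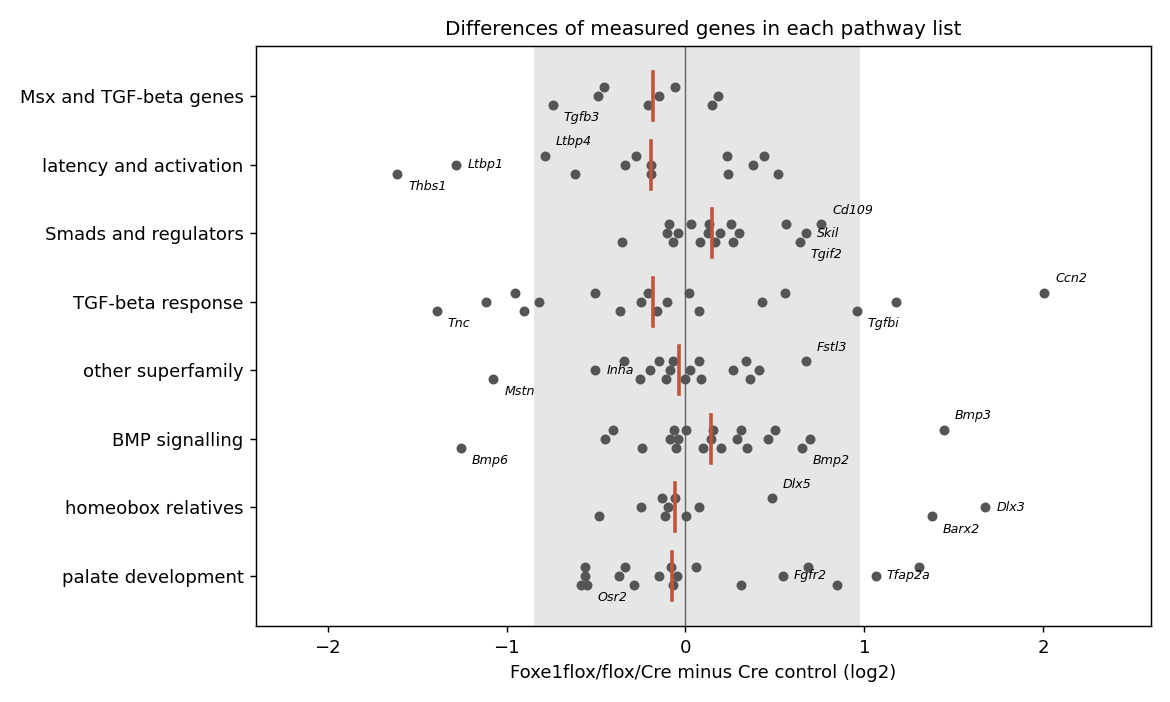
Difference of each measured gene (grey point, log2, x axis) in the Msx and TGF-beta set and in 7 pathway lists (rows, with points shifted up and down for legibility), the list's median as a red line and the central 95% of all probe sets, -0.85 to 0.97, as a grey band. Medians lie between -0.19 and 0.15, and Ccn2 at 2.01 and Thbs1 at -1.61 are the farthest points on either side.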

How the data were processed

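Thyroid RNA of 6 mice was hybridised as biotin-labelled cRNA made from 250 ng of total RNA with an integrity number of at least 7. The deposited values are on the log2 scale, 1 per probe set and array; the submitters' processing notes name RMA and Affymetrix Expression Console, and version, annotation and genome build are not stated in the sources used here. RMA equalises arrays, so a change shared by most genes is lost, and it compresses differences near background.

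Of 22206 probe sets, 19572 carry 1 symbol from the platform's annotation of 2019, updated through gene identifiers to RefSeq (GRCm38.p6), and 2634 are unnamed here; 55 genes have several, and the brightest was used. All probe sets were fitted with limma 3.58.1 in R 4.3.3 (lmFit, eBayes), with two-sided p adjusted by Benjamini-Hochberg over all 22206. Groups came from sample titles. Shared replicate numbers were not treated as pairs in the main fit. Genes named are the 8 members, Foxe1, up to 3 genes with the smallest p of each list and, for Msx1, Tgfb3 and Tgfbr2, the 5 genes with the highest Pearson r. The 7 pathway and 12 marker lists and the members were chosen with earlier results of these data known. Tested on data simulated for knockouts against controls (22206 probe sets, 50 changed at each size), limma recovered 2% of changes of 0.5 log2, 10% of 1, 92% of 2 and 96% of 3, with 6 false calls among 106. The p-values measure the spread between 3 animals per group; this number limits the precision. Figures were drawn with matplotlib 3.10.9.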

Additional observations from a re-analysis of the deposited data

How the results depend on the processing

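None of the 8 genes passed the threshold under any of the alternatives run. They were a second quantile normalization, centring on array medians, eBayes with a trend, plain or robust, weights for arrays, 2 filters (named probe sets alone, and probe sets above the median level alone, which leaves out Msx1 and Msx2), a replicate block, probe sets averaged per gene, a threshold of 0.1 and leaving out each array. For Tgfb3 the adjusted p ran from 0.256 to 0.604. Directions held, with 2 exceptions that came from leaving out 1 array. Leaving out each array gave -0.27 to -0.03 for Msx1, -0.13 to 0.027 for Msx2 (0.027 without control 2), 0.02 to 0.24 for Tgfb1, -0.53 to 0.21 for Tgfb2 (0.21 without control 3), -0.99 to -0.40 for Tgfb3, 0.10 to 0.29 for Tgfbr1, -0.65 to -0.21 for Tgfbr2 and -0.70 to -0.11 for Tgfbr3. The count of all probe sets past the threshold, 75, was 2 to 43 without 1 array (2 without knockout 1, 4 without knockout 3, 9 without control 2, 15 without knockout 2, 16 without control 3, 43 without control 1), 118 with a variance trend and robust fitting and 260 at an adjusted p of 0.1. The cause was not tested.

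Deviations of same-numbered arrays of the 2 groups from their group means had correlations of -0.01, 0.08 and 0.02 over all probe sets. Those of arrays with unlike numbers ran from -0.08 to 0.06. With 3 arrays per group this cannot tell whether the number pairs animals, and the main fit used no pairing. With the replicate block the difference of Tgfb3 stayed at -0.74 with an adjusted p of 0.385, and 0 of 8 genes passed. Over all probe sets the median difference was -0.02 with the values as deposited, -0.01 after quantile normalization and 0.02 after median centring. Among probe sets above the median level alone the median of the homeobox relatives was 1.53. The others read low and drop out, which leaves only Dlx3 and Barx2, so this is no value for the list. Signal over background limits Msx1 and Msx2.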
